A study of Mus musculus with 59 samples.

Results

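Gpd1, Gpd2, Pck1, Pck2, Aqp3 and Aqp7 are 6 of the 55341 genes counted in each of 3 tables of RNA-seq of mouse brown adipose tissue (BAT). They were chosen by name, as genes of the glycerol phosphate shuttle, of glyceroneogenesis and of glycerol transport, and all 6 were listed in every table. In all, 59 male C57BL/6J mice of 8 to 12 weeks were analysed, each as a separate library, in 15 groups. In the thyroid hormone (TH) experiment, mice were made hypothyroid with PTU, an inhibitor of TH synthesis, given in the food. Wild-type (WT) mice were left as PTU controls or taken 3, 6, 12 or 24 h after a single injection of T3 and T4, with 4 mice in each group. In the same experiment, 5 BATKO mice were PTU controls and 5 were taken 24 h after TH. All mice of this experiment were therefore PTU-fed, the controls included. In the temperature experiment, BATKO and control (CTRL) mice were kept for 24 h at 4 °C (4 BATKO, 3 CTRL) or at 30 °C (5 BATKO, 4 CTRL). In the diet experiment, they received a high-fat diet (HFD) for 3.5 days (3 BATKO, 4 CTRL) or chow (2 BATKO, 4 CTRL). The genetic change of the BATKO mice and its driver are not given in the sources used here, so the targeted gene could not be checked.

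In the glycerol phosphate shuttle, cytosolic glycerol 3-phosphate dehydrogenase (Gpd1) uses NADH to turn dihydroxyacetone phosphate into glycerol 3-phosphate. The mitochondrial, FAD-linked enzyme (Gpd2) turns it back and hands the electrons to the respiratory chain, past complex I. Both are abundant in brown fat, and Gpd2 is a textbook target of TH. Glyceroneogenesis is the making of glycerol 3-phosphate from pyruvate for the re-esterification of fatty acids, and cytosolic phosphoenolpyruvate carboxykinase (Pck1) is its main control point in adipocytes. Pck2 is the mitochondrial form of that enzyme. Aqp7 and Aqp3 are aquaglyceroporins, channels for water and glycerol, of which Aqp7 is the known glycerol channel of adipocytes.

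The total count was between 7612059 and 18073627 per mouse, and genes of the mitochondrial genome took 39.2% to 55.7% of it. Levels are given as CPM, counts relative to the total of the library after TMM scaling over all mice of the experiment, so levels of different experiments were set on separate scales. The tissue label was checked with 7 brown adipocyte markers (Ucp1, Cidea and others), whose summed level was 2355 to 24450 CPM in the 59 mice. The markers of liver summed to 0.824 CPM at most. The 9 skeletal muscle markers were uneven within groups, with sums from 0.719 to 8306 CPM. They exceeded 1000 CPM in 2 WT mice of the TH experiment (B12 at 6 h and B26 at 24 h), in 3 mice of the diet experiment and in 6 of the 16 mice of the temperature experiment. Every comparison was repeated without these mice, an alternative chosen after the marker levels were seen. Hr, a known TH target, rose from 0.690 to 1.41 CPM in WT PTU controls to 21.0 to 30.4 CPM at 24 h, whereas the 24 h response of BATKO minus that of WT mice was -4.07 on the log2 scale (SE 0.59, adjusted p = 4.59e-05). In bulk tissue, fewer cells of a type and less RNA per cell cannot be told apart. No source states that the mice of a group came from separate cages or days, so the p-values measure the spread between these mice.

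Per kilobase of exon, the 6 genes covered a wide range of levels. In WT PTU controls, Gpd1 (chr15:99717515-99725005, plus strand, GRCm38) stood at 752 ± 130 CPM per kilobase (SD, n = 4), and Pck1 (chr2:173153048-173159273, plus strand) at 460 ± 87.6. Gpd2 (chr2:57237635-57370719, plus strand) was at 91.2 ± 9.28 and Aqp7 (chr4:41033074-41048139, minus strand) at 36.8 ± 3.17. Pck2 (chr14:55540266-55551242, plus strand) was at 0.700 ± 0.0544, so that the mitochondrial carboxykinase was the minor form in every group. Aqp3 (chr4:41092722-41098183, minus strand) had 0 to 3 counts in every mouse. That is within a floor of 3 counts (0.185 to 0.428 CPM, counting error only), so Aqp3 was not detectable at this depth and was not tested, and 5 of the 6 genes passed the filter of a mean normalised count above 10. No mice overlapped between neighbours in this order in the WT groups at PTU, 3, 6 and 12 h, with Gpd2 above Pck1 at 12 h. At 24 h the mice of Gpd2 and Pck1 overlapped, as did those of Pck1 and Aqp7. In the diet experiment Pck1 and Gpd1 overlapped in all 4 groups, and Pck1 had the higher mean in all except CTRL mice on chow. Within single mice the ratio of Pck1 to Gpd1 was 1.12 to 1.14 in BATKO mice on chow. It spanned 1 in the other groups of that experiment. These levels divide by the union of all annotated exons. With the longest transcript in its place the order was the same in every group except CTRL mice on chow, where Pck1 came above Gpd1.

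Genes that overlap Gpd1, Gpd2 and Pck2 could share reads with them. Antisense gene Gm16537 spans most of Gpd1 but had 14 counts at most in a mouse, which is at most 0.0336% of the Gpd1 count. A930012O16Rik, on the minus strand across the start of Gpd2, had 9 to 92 counts, or 0.0818% to 2.56% of Gpd2. Gm10876 at the start of Pck2 had 0 or 1 count. The strand setting of the counting is not given in the sources used here, so reads of a gene and of its antisense partner cannot be told apart. The pseudogene Gm13535, inside Gpd2, had 0 counts in every mouse.

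The upstream sequences of Gpd2, Pck1 and Aqp7 are shown because these are the genes called after TH in WT mice, and each ends before the earliest annotated exon of its gene. They are RefSeq promoters of GRCm38.p6, read in the direction of the gene, from chr2:57237428-57237634 (plus strand), chr2:173152823-173153047 (plus strand) and chr4:41048140-41048386 (minus strand). Capitals mark matches, on either strand, to AGGTCA (the nuclear receptor half-site), to 2 half-sites 4 bases apart (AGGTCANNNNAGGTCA, called DR4) or 1 base apart (AGGTCANAGGTCA, DR1), to ACGTCA (letters shared with the cyclic AMP response element), to the box TATAAA, known from core promoters, or to the box written CCAAT. The half-site is also contained in DR4 and DR1.

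Gpd2: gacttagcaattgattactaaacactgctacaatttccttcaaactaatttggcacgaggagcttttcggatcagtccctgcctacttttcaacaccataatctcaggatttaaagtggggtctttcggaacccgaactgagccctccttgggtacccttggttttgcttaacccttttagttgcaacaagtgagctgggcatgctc
Pck1: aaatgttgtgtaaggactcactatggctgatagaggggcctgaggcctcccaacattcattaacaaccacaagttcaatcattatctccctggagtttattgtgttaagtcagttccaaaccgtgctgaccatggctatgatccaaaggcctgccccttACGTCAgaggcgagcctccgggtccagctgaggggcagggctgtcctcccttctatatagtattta
Aqp7: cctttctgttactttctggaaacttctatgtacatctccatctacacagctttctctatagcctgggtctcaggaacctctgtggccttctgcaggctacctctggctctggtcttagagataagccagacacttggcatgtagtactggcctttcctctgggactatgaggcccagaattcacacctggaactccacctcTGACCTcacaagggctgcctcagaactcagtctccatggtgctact

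None of the 6 motifs matched in the stretch shown for Gpd2 or in the 300-base window of its other RefSeq start, which had a GC content of 72.7%. In Pck1, ACGTCA lay 91 to 86 bases before the start, and 7.51% of the 32851 promoters of the table held that motif. In Aqp7, the half-site was found on the other strand (TGACCT) 49 to 44 bases before the start, and 16.3% of all promoters held a half-site. The window of the other Aqp7 start held the same site and a further half-site 101 to 96 bases before that start. The Pck2 window matched CCAAT (37.4% of all promoters) and the Aqp3 window TATAAA (13.6%). DR4 occurred in 0.0152% and DR1 in 0.0396% of all promoters and in no window of these genes. A match is a description of letters, and no match says nothing of a factor outside this window. RefSeq windows were found for 5 of the 6 genes.

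The WT time course asked how each gene responded to TH over 24 h. Gpd2 was upregulated at every time, Pck1 and Aqp7 were downregulated at 12 and 24 h, and edgeR called neither Gpd1 nor Pck2 at any time, while DESeq2 called Gpd1 at 12 h (adjusted p = 0.0364). At 3 h, 1 of the 5 genes tested was called, where 9.19% of all 13003 genes tested were called. At 6 h it was again 1 of 5, with 23% of all genes called. At 12 h it was 3 of 5 with 25.7% of all genes called, and at 24 h 3 of 5 with 32.7%. The brown adipocyte markers summed to 9706 to 11440 CPM in PTU controls, 11980 to 16740 CPM at 3 h, 14230 to 16410 CPM at 6 h, 12640 to 19290 CPM at 12 h and 10560 to 17720 CPM at 24 h. The white adipocyte markers were at 105.5 to 118 CPM in PTU controls and at 59.0 to 102 CPM at 3 h, 95 to 167 CPM at 6 h, 59.2 to 107 CPM at 12 h and 56.5 to 107 CPM at 24 h. The endothelial markers were at 322 to 328 CPM in PTU controls, 335 to 364 CPM at 3 h and 253 to 314 CPM at 12 h, and overlapped the controls at 6 and 24 h. The Schwann cell markers were at 66.4 to 75.6 CPM in PTU controls and 55.1 to 64.9 CPM at 12 h, and overlapped the controls at the other times. The part of these markers in the TH results was not tested.

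**Figure D1:**
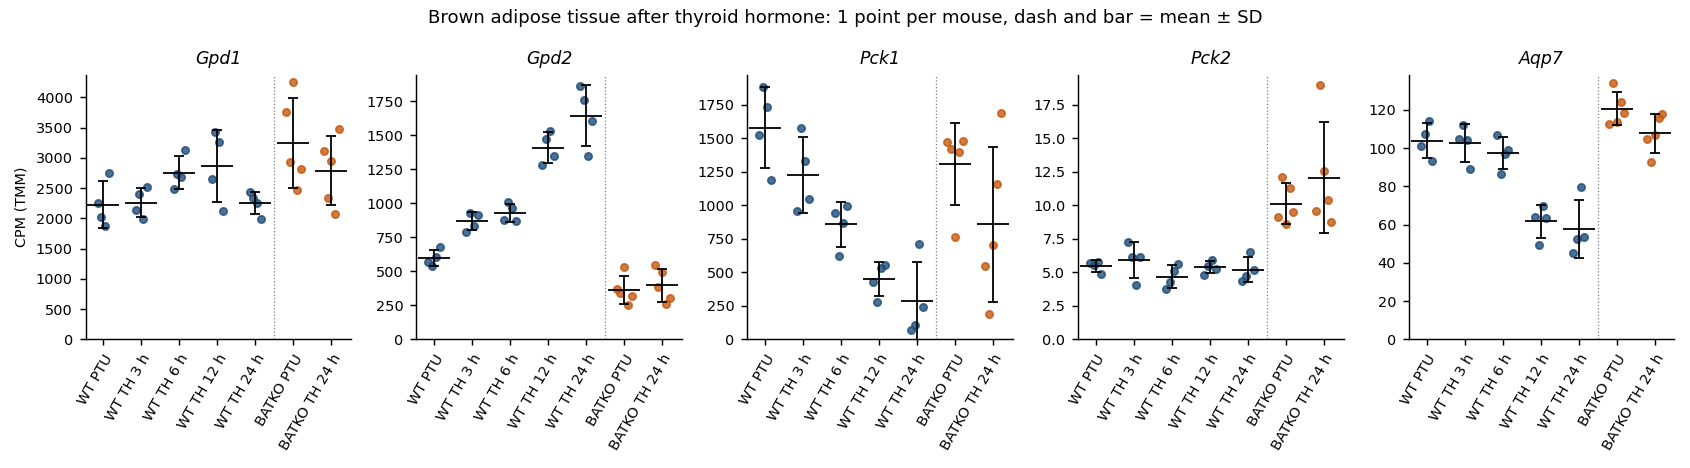
Levels of 5 genes in the TH experiment, in CPM scaled by TMM, with 1 point per mouse and the mean and SD of each group (blue, WT; orange, BATKO; the SD bar of Pck1 at 24 h is cut at 0). Gpd2 rose in WT mice from 541 to 681 CPM in PTU controls to 1349 to 1861 CPM at 24 h, Pck1 and Aqp7 fell, and BATKO mice at 24 h overlapped their own controls for all 5 genes.

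Gpd2 was at 566, 541, 602 and 681 CPM in the PTU controls and at 791, 928, 835 and 915 CPM 3 h after TH. The groups did not overlap, and the log2 fold-change was 0.52 (SE 0.11, adjusted p = 0.00468). At 6 h the mice were at 874, 1008, 965 and 871 CPM (log2 fold-change 0.62, SE 0.11, adjusted p = 0.000398). All mice at 3 and 6 h were thus above all controls, while the step from 3 to 6 h was not called (0.10, SE 0.11, adjusted p = 0.716). At 12 h Gpd2 reached 1277, 1470, 1529 and 1347 CPM, 2.37-fold the control level (95% interval 2.03 to 2.75, adjusted p = 7.12e-08). At 24 h it was at 1861, 1756, 1349 and 1604 CPM, 2.74-fold the control level (2.36 to 3.20, adjusted p = 4.49e-09). A rise from 6 to 12 h was called (log2 fold-change 0.62, SE 0.11, adjusted p = 0.00563), and the groups at these times did not overlap. The difference between 12 and 24 h was 0.21 (SE 0.11, adjusted p = 0.223), with overlapping mice. The log2 fold-change of Gpd2 at 24 h was larger than that of 97.5% of all genes tested. In a fit that also held the BATKO mice, the calls at 3 h (log2 fold-change 0.54, adjusted p = 0.0693) and from 6 to 12 h (0.60, adjusted p = 0.0823) were lost, with changes of about the same size.

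Gpd1, the cytosolic partner of Gpd2, was at 2256, 2023, 1878 and 2754 CPM in PTU controls. Its mean was 2261 CPM 3 h after TH, 2757 CPM after 6 h, 2868 CPM after 12 h and 2252 CPM after 24 h, and every time point overlapped the controls. The largest difference, at 12 h, had a log2 fold-change of 0.37 (SE 0.14, adjusted p = 0.064), with mice at 2649, 3427, 3264 and 2130 CPM. It was called by DESeq2 (adjusted p = 0.0364) and without mouse B5 or mouse B23. At 24 h the fold was 1.01, with a 95% interval of 0.829 to 1.23. The ratio of Gpd2 to Gpd1 per kilobase of exon was 0.112 to 0.145 in the 4 control mice and 0.271 to 0.364 in the 4 mice at 24 h.

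Pck1 was at 1521, 1877, 1731 and 1185 CPM in PTU controls. At 3 h it was at 954, 1575, 1327 and 1042 CPM, overlapping the controls (log2 fold-change -0.39, SE 0.44, adjusted p = 0.625). At 6 h the mice were at 945, 621, 867 and 993 CPM, all below the controls, but the difference was not called (-0.90, SE 0.45, adjusted p = 0.152). In a fit of the 2 groups alone it was (adjusted p = 0.00207). At 12 h Pck1 was at 428, 280, 533 and 554 CPM (-1.80, SE 0.46, adjusted p = 0.00549). At 24 h it was at 67.5, 107, 711 and 243 CPM (-2.49, SE 0.47, adjusted p = 0.00034). All mice at 12 and 24 h were below all controls, and 0.285% of the genes tested had a lower log2 fold-change at 24 h than Pck1. The spread at 24 h was wide, and mouse B27 was far above the other mice of its group. Without B27 the 24 h log2 fold-change was -3.50, and a fall from 12 to 24 h was called (-1.68, adjusted p = 0.00266), which it was not with that mouse (-0.68, adjusted p = 0.353). Mouse B27 also had the lowest Gpd2 and the highest Aqp7 level at 24 h, whereas its Hr level of 24.6 CPM lay inside the range of the group.

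Aqp7 was at 101, 107, 114 and 93.2 CPM in PTU controls. Its mean was 103 CPM at 3 h and 97.3 CPM at 6 h, both overlapping the controls (adjusted p = 0.89 and 0.595). At 12 h the mice were at 63.8, 49.2, 70.0 and 63.6 CPM, 0.597-fold the control level (95% interval 0.493 to 0.724, adjusted p = 0.000481). At 24 h they were at 45.0, 52.6, 79.5 and 53.4 CPM (0.554-fold, 0.457 to 0.671, adjusted p = 9.16e-05). All mice at both times were below the controls. A fall from 6 to 12 h was called (log2 fold-change -0.63, SE 0.14, adjusted p = 0.0209), and was lost without mouse B12 at 6 h (adjusted p = 0.0647) or mouse B20 at 12 h (adjusted p = 0.0621). Mouse B12 was 1 of the 2 WT mice high in skeletal muscle markers, and without both the log2 fold-change was -0.61 with an adjusted p of 0.0784.

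Pck2 was low, with 43 to 97 counts per WT mouse, and its group means stayed between 4.67 CPM (6 h) and 5.89 CPM (3 h). The interval of the 24 h fold was 0.754 to 1.20 (adjusted p = 0.79). Aqp3 was at 0 counts in all 4 PTU controls and at 2 counts at most in any TH-treated WT mouse. Between consecutive times, no gene of the 5 was called from 3 to 6 h by edgeR (0 at an unadjusted p under 0.05, 0 by DESeq2), where 2.80% of all genes were called. From 6 to 12 h, 2 of 5 were called (Gpd2 and Aqp7) with 2.95% of all genes called. From 12 to 24 h none was called by edgeR (1, Gpd1, at an unadjusted p under 0.05, 0 by DESeq2), with 11.4% of all genes called.

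In BATKO mice the question was whether the same genes responded 24 h after TH. No gene of the 5 was called by edgeR (0 at an unadjusted p under 0.05, 0 by DESeq2), and the share over all 14178 genes tested was also 0% (673 genes at an unadjusted p under 0.05, 0 genes by DESeq2). Gpd2 was at 369, 337, 533, 254 and 321 CPM in BATKO PTU controls and at 544, 385, 496, 256 and 305 CPM at 24 h. These groups overlapped, and the fold was 1.09 with a 95% interval of 0.875 to 1.37. All 5 BATKO controls were below the 4 WT controls in Gpd2. In Pck2 they were all above the WT controls (8.57 to 12.1 CPM against 4.84 to 5.77 CPM). The controls of the genotypes overlapped in Gpd1, Pck1 and Aqp7, and none of these differences was tested. The summed level of the brown adipocyte markers was lower in BATKO controls (3470 to 4371 CPM) than in WT controls (9706 to 11440 CPM). The white adipocyte markers were also lower (29.2 to 51.6 CPM against 105.5 to 118 CPM), and the endothelial markers were higher (382 to 432 CPM against 322 to 328 CPM). The part of these markers in the differences between the controls was not tested.

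Pck1 was at 1474, 1420, 760, 1398 and 1478 CPM in BATKO controls and at 545, 188, 704, 1158 and 1685 CPM at 24 h. The treated mice were spread from far below the lowest control to above the highest (log2 fold-change -0.61, SE 0.44, adjusted p = 0.963). Aqp7 was at 113 to 134 CPM in the 5 controls and 92.8 to 118 CPM at 24 h (-0.16, SE 0.12, adjusted p = 0.963). Gpd1 had a fold of 0.859 (95% interval 0.697 to 1.06), and Pck2 of 1.19 (0.951 to 1.5). The 95% intervals of the folds of all 5 genes included 1.

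The difference between the BATKO and WT responses was tested as an interaction. It was called for 2 of 5 genes, with 12.3% of all genes called. For Gpd2 the BATKO minus the WT response was -1.33 on the log2 scale (SE 0.25, adjusted p = 0.000808). For Aqp7 it was 0.69 higher (SE 0.17, adjusted p = 0.00958), that is, a smaller fall. Both were called in all 25 alternatives tried. For Pck1 the difference of 1.87 (SE 0.66, adjusted p = 0.0593) missed the threshold, and it was called in 5 of 25 alternatives, among them DESeq2 (adjusted p = 0.0489) and the fit without WT mouse B27 (2.89, adjusted p = 0.00189). For Gpd1 it was -0.23 (SE 0.23) and for Pck2 0.32 (SE 0.27), neither called. The WT mice of the TH experiment carry a B before their number and the BATKO mice do not, and no CTRL mice were included. The total count was 12022144 to 14615534 in WT and 14681206 to 18073627 in BATKO PTU controls. No source states that both genotypes were handled together, so genotype and set of mice cannot be told apart in this experiment.

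Other genes of the pathway were counted from lists of 8 genes of the NADH shuttles and 9 genes of glycerol handling. Of the 15 that could be tested in WT mice, 2 rose and 1 fell at 3 h, 5 rose and 0 fell at 6 h, 6 rose and 1 fell at 12 h, and 8 rose and 1 fell at 24 h. The shares of all genes called at these times were 9.19%, 23%, 25.7% and 32.7%. Their median log2 fold-change at 24 h was 0.493, against 0.00807 over all genes tested. At 24 h, 5 of the 9 calls were in the list of NADH shuttle genes, most of which belong to the malate-aspartate shuttle, the other route of cytosolic NADH into mitochondria. Got1, its cytosolic aspartate aminotransferase, rose from 10.3 to 13.4 CPM in PTU controls to 20.3 to 42.1 CPM at 3 h and 95.4 to 158 CPM at 24 h (log2 fold-change 3.31, SE 0.26, adjusted p = 6.73e-09). Mdh1 (0.50, adjusted p = 0.00222), Mdh2 (0.29, adjusted p = 0.0321), Got2 (1.07, adjusted p = 0.00434) and the oxoglutarate carrier Slc25a11 (0.60, adjusted p = 0.0017) rose at 24 h. The remaining shuttle genes tested were the aspartate carrier Slc25a12 (0.68, adjusted p = 0.08) and Gpd1l (-0.05, adjusted p = 0.801).

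Among the glycerol genes, the phosphatase Pgp (0.49), triosephosphate isomerase Tpi1 (0.52) and the water channel Aqp1 (1.20) rose at 24 h, and the dicarboxylate carrier Slc25a10 fell (-0.82). Aqp1, also known from endothelium, was at 22.8 to 43.8 CPM in controls and 45.3 to 118 CPM at 24 h. The summed endothelial markers were at 322 to 328 CPM and 302 to 338 CPM in the same groups. Glycerol kinase (Gk) was at 169 to 240 CPM in controls and at 325 to 575 CPM at 6 h, above all controls. It was at 205 to 537 CPM at 12 h and 47.2 to 297 CPM at 24 h, and only its fall from 12 to 24 h was called (-1.82, SE 0.44, adjusted p = 0.0105). In BATKO mice 0 of these 15 genes were called by edgeR at 24 h (1 at an unadjusted p under 0.05), as were 0% of all genes. The interaction was called for Got1 (-2.88, SE 0.45, adjusted p = 0.00011), Slc25a11 (-0.55), Pgp (-0.55) and Aqp1 (-1.33), 4 of 15 genes where 12.3% of all genes were called.

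The temperature experiment compared 24 h at 4 °C, which activates thermogenesis in BAT, with 30 °C, near thermoneutrality. In CTRL mice both shuttle enzymes and Aqp7 rose in the cold and Pck2 fell, so that 4 of 5 genes were called, where 49.1% of all 13267 genes tested were called. In BATKO mice both shuttle enzymes and Pck1 rose and Pck2 fell, again 4 of 5, with 40.3% of all genes called.

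**Figure D2:**
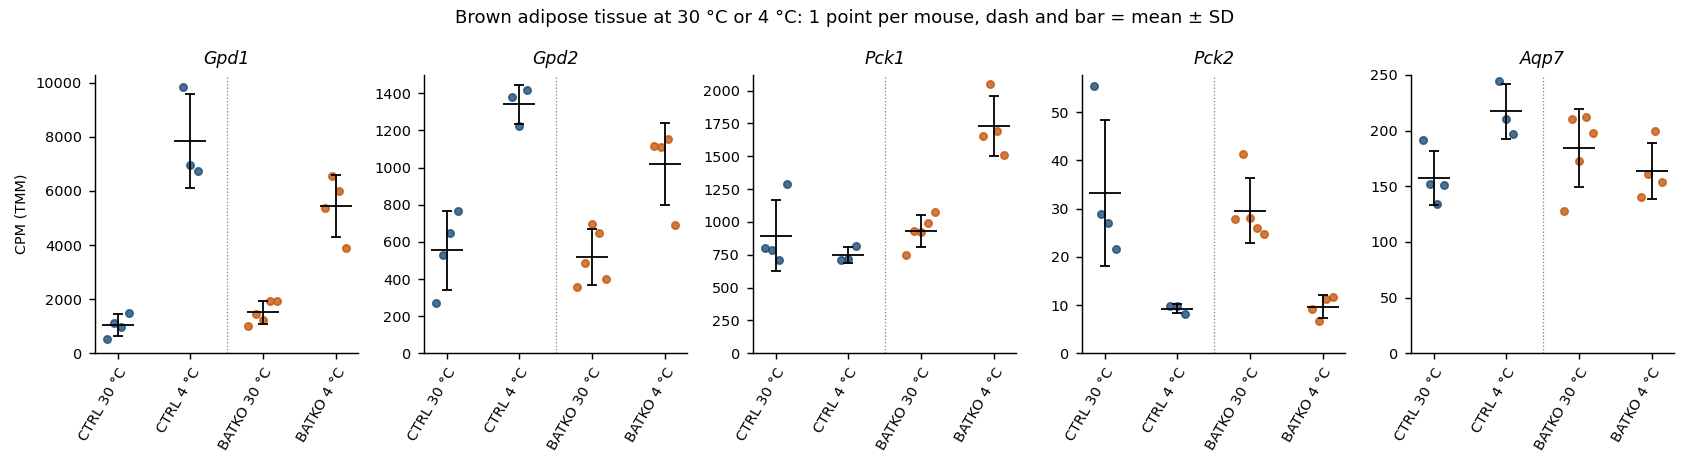
Levels of 5 genes in the temperature experiment, in CPM scaled by TMM, with 1 point per mouse and the mean and SD of each group (blue, CTRL; orange, BATKO). Gpd1 and Gpd2 were higher at 4 °C in both genotypes, Pck2 was lower, and the 4 BATKO mice at 4 °C had the highest Pck1 levels, from 1514 to 2052 CPM.

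Gpd1 was at 523, 1128, 989 and 1498 CPM in CTRL mice at 30 °C and at 9837, 6970 and 6729 CPM at 4 °C. Every mouse in the cold was far above every mouse at 30 °C, and the fitted change was 7.58-fold (95% interval 4.97 to 11.6, adjusted p = 1.68e-06). This log2 fold-change exceeded that of 99.2% of all genes tested. In BATKO mice Gpd1 was at 1026, 1448, 1217, 1932 and 1927 CPM at 30 °C and at 5378, 6537, 6012 and 3879 CPM at 4 °C, 3.61-fold higher (2.51 to 5.19, adjusted p = 5.77e-05). The groups did not overlap in either genotype. At 4 °C all 4 BATKO mice were below the 3 CTRL mice, but the difference was not called (log2 fold-change -0.53, SE 0.30, adjusted p = 0.408). Nor was the difference between the cold responses (-1.07, SE 0.40, adjusted p = 0.16).

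Gpd2 was at 271, 531, 649 and 763 CPM in CTRL mice at 30 °C and at 1379, 1223 and 1416 CPM at 4 °C (2.42-fold, 95% interval 1.62 to 3.62, adjusted p = 0.002). In BATKO mice it was at 355, 484, 697, 649.5 and 400 CPM at 30 °C and at 1116, 1110, 1156 and 691 CPM at 4 °C (1.97-fold, 1.38 to 2.81, adjusted p = 0.00698). Here the groups overlapped, through mouse 12 at 4 °C. Without the mice high in skeletal muscle markers, which leaves 2 BATKO mice at 4 °C and 3 at 30 °C, the log2 fold-change fell to 0.57 and the call was lost (adjusted p = 0.297). The 4 BATKO mice at 4 °C were below the 3 CTRL mice without a call (-0.40, SE 0.30, adjusted p = 0.549), and the cold responses did not differ by the test (-0.30, SE 0.40, adjusted p = 0.739).

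The rise of Gpd1 was larger than that of Gpd2, so that the ratio of Gpd2 to Gpd1 per kilobase fell in CTRL mice from 0.213 to 0.297 at 30 °C to 0.0634 to 0.0952 at 4 °C. In BATKO mice the ratios at 30 °C (0.0938 to 0.259) and at 4 °C (0.0768 to 0.0939) overlapped. The markers of brown adipocytes also summed to higher levels in the cold, with 2355 to 4539 CPM at 30 °C and 18970 to 24450 CPM at 4 °C in CTRL mice, and the erythroid markers to 177 to 333 CPM and 766 to 1711 CPM. In BATKO mice the brown adipocyte markers were at 3240 to 4757 CPM at 30 °C and 11140 to 19030 CPM at 4 °C, and the erythroid markers at 182 to 494 CPM and 771 to 1111 CPM. The white adipocyte markers summed to lower levels in the cold, with 41.5 to 169 CPM at 30 °C and 10.5 to 48.7 CPM at 4 °C in CTRL mice, and 82.9 to 193 CPM and 26.2 to 91.3 CPM in BATKO mice. In CTRL mice the macrophage markers were at 45.4 to 68.0 CPM at 30 °C and 40.2 to 44.7 CPM at 4 °C. The lymphocyte markers were at 1.65 to 3.83 CPM and 0.737 to 1.02 CPM in the same mice. Both overlapped between the temperatures in BATKO mice. The part of all these markers in the cold results of Gpd1, Gpd2, Pck1, Pck2 and Aqp7 was not tested.

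Pck1 was the only gene of the 5 whose cold response was called as different between the genotypes. In CTRL mice it was at 801, 785, 708 and 1293 CPM at 30 °C and at 712, 721 and 818 CPM at 4 °C (log2 fold-change -0.26, SE 0.19, adjusted p = 0.281). In BATKO mice it was at 745, 933, 925, 992 and 1076 CPM at 30 °C and at 1652, 2052, 1694 and 1514 CPM at 4 °C (1.85-fold, 95% interval 1.47 to 2.33, adjusted p = 0.00059). All BATKO mice in the cold were above all other mice of this experiment. At 4 °C Pck1 was 2.3-fold higher in BATKO than in CTRL mice (1.76 to 3.02, adjusted p = 0.00839), the only call of the 5 genes in a comparison with 2.16% of all genes called (286 genes, and 53 without CTRL mouse 2 to 565 without CTRL mouse 5). That call was lost without CTRL mouse 2 (log2 fold-change 1.13, adjusted p = 0.0511) and was made in the other 13 alternatives. In the same mice the brown adipocyte markers summed to 11140 to 19030 CPM in BATKO and 18970 to 24450 CPM in CTRL mice, and the white adipocyte markers to a median of 41.8 CPM and 17.7 CPM, with overlapping ranges for both, and their part in the difference was not tested. At 30 °C none of the 5 was called by edgeR (0 at an unadjusted p under 0.05, 0 by DESeq2), with 0.00754% of all genes called, and the fold of Pck1 was 1.04 (0.827 to 1.31).

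The cold responses of Pck1 differed by 1.15 on the log2 scale (SE 0.26, adjusted p = 0.0433), which made 1 call of 5 where 1.12% of all genes were called (149 genes, and 5 without CTRL mouse 1 to 907 without CTRL mouse 5 at 4 °C). This call stood close to the threshold. It was kept in 4 of the 16 fits that left out a mouse (BATKO mouse 11 or 13, CTRL mouse 5 or 22) and lost in the rest. Over all 16 the difference ranged from 0.91 (without CTRL mouse 22, call kept) to 1.24, and the adjusted p reached 0.128. Without the mice high in skeletal muscle markers the difference was 1.22 with an adjusted p of 0.167, while DESeq2 made the call (adjusted p = 0.000922).

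Pck2 was at 55.3, 29.0, 27.1 and 21.6 CPM in CTRL mice at 30 °C and at 9.82, 9.83 and 8.16 CPM at 4 °C, 0.279-fold (95% interval 0.186 to 0.417, adjusted p = 8.82e-05). In BATKO mice it was at 24.8 to 41.4 CPM at 30 °C and 6.61 to 11.8 CPM at 4 °C, 0.328-fold (0.232 to 0.464, adjusted p = 0.000131). The groups did not overlap in either genotype. The carboxykinases therefore moved apart in BATKO mice, where Pck1 rose while Pck2 fell.

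Aqp7 was at 192, 152, 134 and 151 CPM in CTRL mice at 30 °C and at 245, 210 and 197 CPM at 4 °C (log2 fold-change 0.47, SE 0.18, adjusted p = 0.0416). This call was lost in 7 of 14 alternatives, 5 of which left out a CTRL mouse (1 or 2 at 4 °C, or 20, 21 or 22 at 30 °C, with an adjusted p of up to 0.202). In BATKO mice the log2 fold-change was -0.17 (SE 0.16, adjusted p = 0.406). The difference between the responses was -0.64 (SE 0.24, adjusted p = 0.163). Aqp3 was at 3 counts at most in any mouse of this experiment.

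Of the 15 other pathway genes tested in CTRL mice, 7 rose and 3 fell in the cold, and in BATKO mice 7 rose and 2 fell, where 49.1% and 40.3% of all genes were called. Gk, which makes glycerol 3-phosphate from glycerol, was at 8.94 to 32.1 CPM in CTRL mice at 30 °C and at 507 to 739 CPM at 4 °C (log2 fold-change 5.27, SE 0.39, adjusted p = 6.95e-08). In BATKO mice its log2 fold-change was 4.82 (SE 0.34). Pgp, which breaks glycerol 3-phosphate down to glycerol, rose by 2.48 in CTRL and 1.67 in BATKO mice on this scale. Got1 (3.18), Mdh1 (1.24), Mdh2 (1.13), Tpi1 (1.16) and Slc25a11 (1.03) rose in CTRL mice. Gpd1l, a relative of Gpd1, fell by 0.85 in CTRL mice, Got2 fell by 1.02 and Aqp1 fell by 2.65. The endothelial markers summed to 443 to 544 CPM at 30 °C and 537 to 616 CPM at 4 °C in CTRL mice, and their part in the change of Aqp1 was not tested. None of the 15 genes was called between the genotypes at either temperature or in the difference of the cold responses by edgeR (4, 2 and 3 at an unadjusted p under 0.05), where 2.16% (4 °C), 0.00754% (30 °C) and 1.12% of all genes were called.

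**Figure D3:**
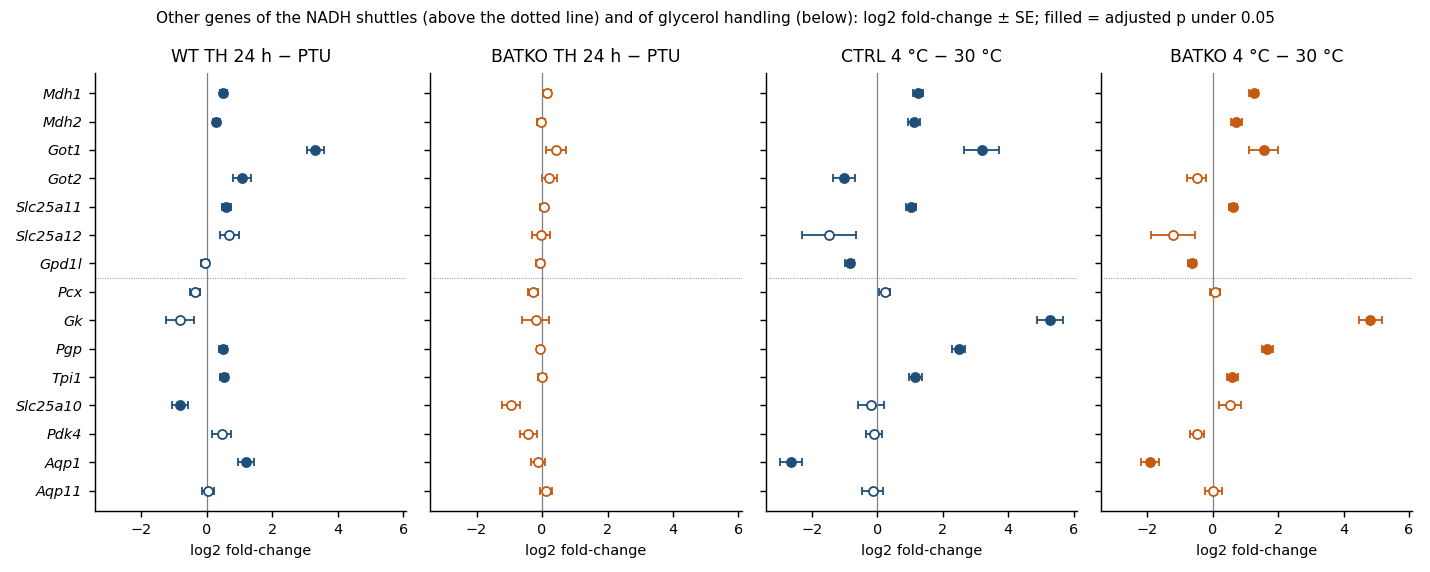
Log2 fold-changes with SE of 15 other genes of the NADH shuttles and of glycerol handling, 24 h after TH and at 4 °C, with filled points for an adjusted p under 0.05. Gk changed most in the cold (5.27 in CTRL mice) and Got1 after TH in WT mice (3.31), and no point is filled for BATKO mice after TH.

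The diet experiment compared HFD with chow. No gene of the 5 was called in any of its 5 comparisons, by edgeR or by DESeq2. In CTRL mice 3.94% of all 12932 genes were called and none of the 5 genes had an unadjusted p under 0.05. Gpd2 was at 752, 771, 682 and 668 CPM on chow and at 683, 827, 665 and 709 CPM on HFD, a fold of 1.00 with a 95% interval of 0.858 to 1.17. Gpd1 had a fold of 0.906 (0.767 to 1.07), Pck1 of 1.10 (0.955 to 1.26), Pck2 of 0.871 (0.713 to 1.07) and Aqp7 of 1.11 (0.979 to 1.26). All 5 intervals lay within 1.5-fold in either direction. They rest on a normal quantile in a fit of few mice, with no allowance for 5 intervals, so they do not exclude such a change. Over the alternatives the log2 fold-change of Pck2 ranged from -0.40 to -0.12.

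**Figure D4:**
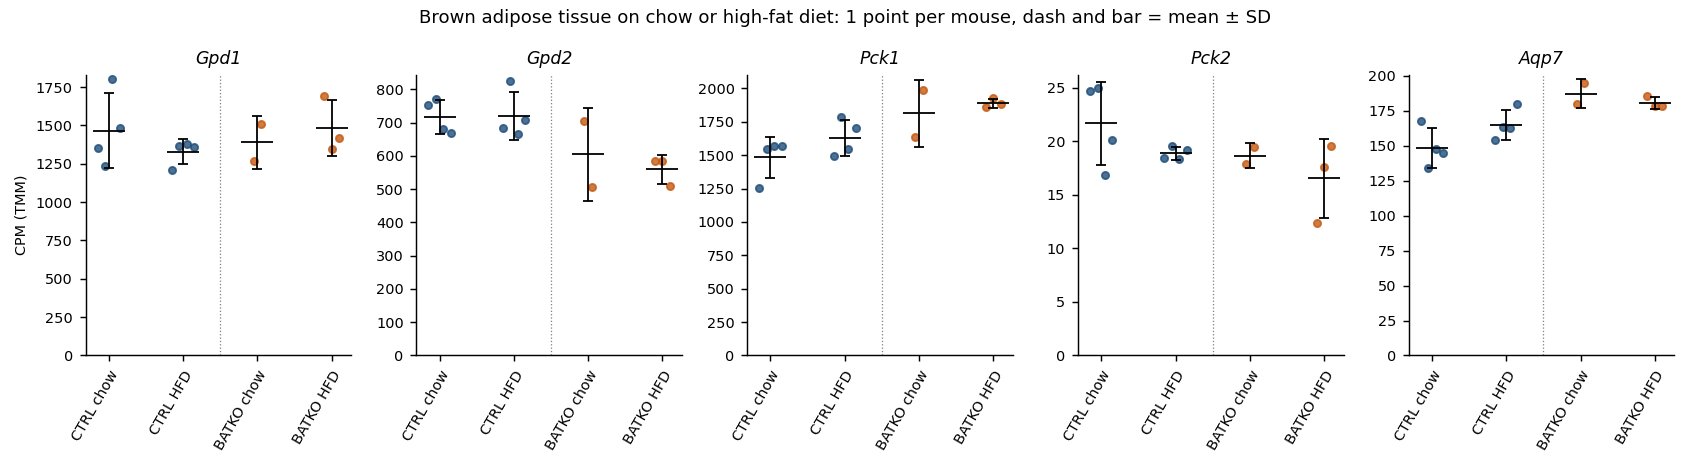
Levels of 5 genes in the diet experiment, in CPM scaled by TMM, with 1 point per mouse and the mean and SD of each group (blue, CTRL; orange, BATKO). Chow and HFD mice overlapped within each genotype for all 5 genes, and the 3 BATKO mice on HFD were below the 4 CTRL mice in Gpd2.

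In BATKO mice, with 2 mice on chow and 3 on HFD, 0 of 5 genes were called (0 at an unadjusted p under 0.05), and 0.0696% of all genes were called. Pck1 was at 1636 and 1991 CPM on chow and at 1860, 1927 and 1882 CPM on HFD, and the fold intervals of the 5 genes ran from 0.684 to 1.32. Between genotypes on HFD, 0 of 5 genes and 0% of all genes were called by edgeR (691 of all genes at an unadjusted p under 0.05, 9 by DESeq2). Gpd2 alone had an unadjusted p under 0.05, with 586, 585 and 508 CPM in BATKO mice, all below the 665 to 827 CPM of CTRL mice (log2 fold-change -0.37, SE 0.13, adjusted p = 0.884). On chow, 0 of 5 genes and 0% of all genes were called by edgeR (1024 of all genes at an unadjusted p under 0.05, 33 by DESeq2). With no filter edgeR called 290 genes, and with only the 2 groups 114. There Pck1 and Aqp7 had an unadjusted p under 0.05, with both BATKO mice above all CTRL mice (adjusted p = 0.605 for Pck1 and 0.438 for Aqp7). In the same mice the white adipocyte markers summed to 198 to 324 CPM in BATKO and 93.1 to 138 CPM in CTRL mice, and the macrophage markers to 92.0 to 116 CPM and 40.4 to 52 CPM, and their part in these differences was not tested. The difference between the diet responses was called for 0 of 5 genes and 0% of all genes by edgeR (0 of the 5 and 740 of all genes at an unadjusted p under 0.05, 0 by DESeq2). Of the other pathway genes, only Aqp11 was called in this experiment, with a fall by 0.84 in CTRL mice on HFD (adjusted p = 0.0144). At an unadjusted p under 0.05 of the edgeR test there were 8 of 15 in CTRL mice on HFD, with 2802 of all 12932 genes. In BATKO mice on HFD there were 4 of 15, with 1996 of all genes.

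Across the experiments, Gpd2 was the gene that rose both after TH in WT mice and in the cold in both genotypes, whereas edgeR called Gpd1 in the cold alone (DESeq2 also at 12 h after TH). Pck1 fell after TH in WT mice, rose in the cold in BATKO mice and was not called in the cold in CTRL mice. Pck2 was called in the cold alone, where it fell. Aqp7 fell after TH in WT mice and rose in the cold in CTRL mice, the latter a call lost in 7 of 14 alternatives. These counts of calls come from fits with different numbers of mice, and the responses to TH and to cold were not tested against each other.

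**Figure D5:**
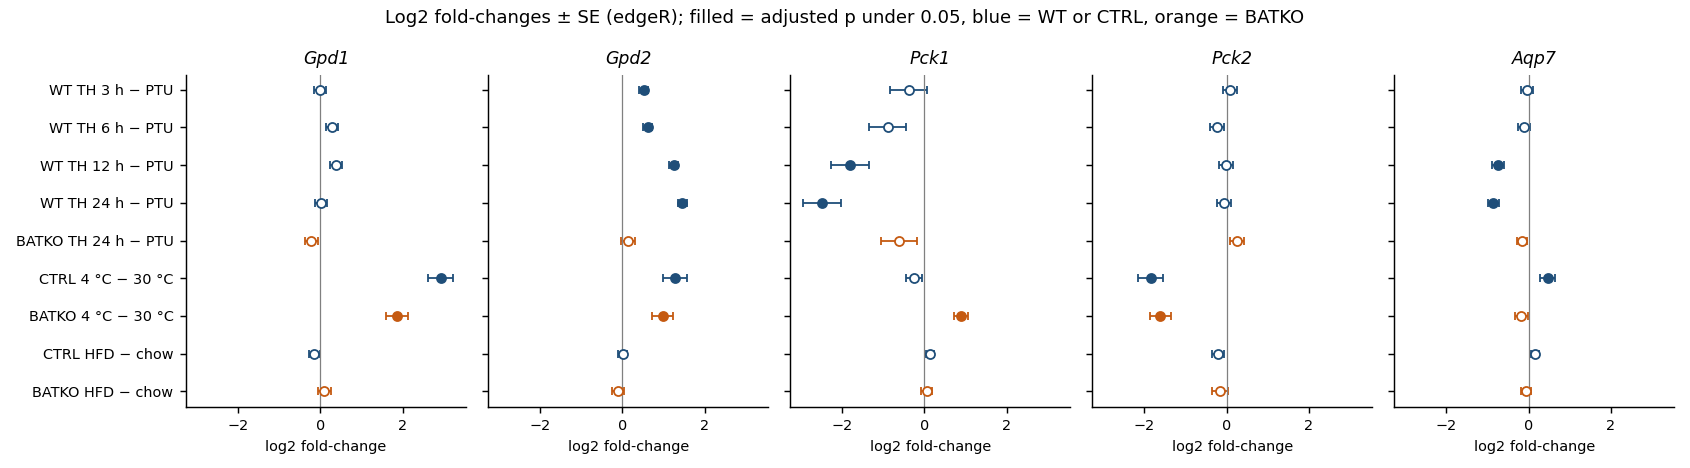
Log2 fold-changes with SE of 5 genes in 9 comparisons, with filled points for an adjusted p under 0.05 (blue, WT or CTRL; orange, BATKO). After TH, points are filled in WT mice alone, for Gpd2 at all times and for Pck1 and Aqp7 at 12 and 24 h, while in the cold they are filled for Gpd1, Gpd2 and Pck2 in both genotypes, Aqp7 in CTRL and Pck1 in BATKO mice, and on HFD for no gene.

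The genes most like each of these in the WT time course were taken as the 3 with the highest Pearson r of log2 CPM over the 20 WT mice, among 9216 genes with a mean normalised count above 50. The 20 points share 5 groups, so these values are a description. For Gpd2 they were Gm32468 (r = 0.976), Ahcyl1 (0.960) and Acot11 (0.958). Over the 16 mice of the temperature experiment r was 0.755, 0.799 and 0.950 for the same genes. For Pck1 they were Arel1 (0.951), Tmem120a (0.945) and Ctcflos (0.934), with 0.486, 0.435 and 0.249 in the temperature experiment. For Aqp7 the closest gene of all was Pck1 (0.933), followed by Tmbim1 (0.928) and Wipi2 (0.921). In the temperature experiment r of Aqp7 with Pck1 was -0.197, so the likeness in the TH time course was not seen there. For Gpd1 they were Lamp1 (0.811), Atp5b (0.805) and Sepsecs (0.769), with 0.964, 0.919 and 0.735 in the temperature experiment. For Pck2 the highest r was 0.706 (Stk38), and it was -0.870 in the temperature experiment.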

How the data were processed

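BAT RNA of 59 mice was sequenced by the authors from Lexogen SENSE total RNA libraries on a NextSeq 500. Reads were aligned to mm10 (Bowtie2 2.3.2.2 in the submitters' processing notes), alignments of low quality were removed, and the authors deposited htseq-count counts per gene, not normalized, in 3 tables of 55341 genes. The annotation and strand setting are not given in the sources used here. Groups were taken from the labels, and columns matched to no sample numbered 0. The 6 genes, the other pathway genes, the markers and the naming of the 3 most correlated genes were chosen with earlier results of these data known.

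Counts were scaled by TMM within each experiment and tested with edgeR's quasi-likelihood test (edgeR 4.0.16, limma 3.58.1, R 4.3.3) on genes with a mean normalised count above 10. P-values are two-sided, were adjusted by Benjamini-Hochberg over all genes tested, and were called under 0.05. The WT time course was fitted with the 20 WT mice, comparisons with BATKO mice of the TH experiment with all 30 mice, and the other experiments with all their mice (16 and 13). The 95% intervals of folds are 1.96 SE of the log2 fold-change to either side. Means ± SD are of CPM over mice, and log2 CPM used a prior count of 2. Symbols were matched to GENCODE vM21 on GRCm38 for lengths and positions (55327 found, 14 not). Alternatives were DESeq2 1.42.0, its size factors, leaving out mitochondrial genes, no filter or a stricter filter (mean above 50), smaller fits restricted to the compared groups, a joint fit of the 30 mice of the TH experiment, and leaving out each mouse in turn. Leaving out mice above 1000 CPM of muscle markers was added after the data were seen. The fit of the 20 WT mice (24 h against PTU) and that of the temperature experiment (CTRL mice, 4 °C against 30 °C) were tested on simulated data before use. The other fits and the differences between responses were not. Intervals and floors cover counting error only where they rest on counts of a single mouse. Figures were drawn with matplotlib 3.10.9 in Python 3.11.15.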

Additional observations from a re-analysis of the deposited data

Results flagged for a closer look

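In 60 combinations of gene and group, of 4 or 5 mice each, the highest or lowest mouse was compared with the others by Dixon's criterion, which chance meets in about 1 group in 20. It was met 6 times. Gpd1 was at 1210 CPM in mouse 7 of CTRL mice on HFD (others 1362 to 1381 CPM). Gpd2 was at 691 CPM in BATKO mouse 12 at 4 °C (others 1110 to 1156 CPM). Pck1 stood apart in 3 groups, at 760 CPM in BATKO PTU mouse 4 (others 1398 to 1478 CPM), at 1293 CPM in CTRL mouse 22 at 30 °C (others 708 to 801 CPM) and at 1256 CPM in CTRL mouse 1 on chow (others 1545 to 1572 CPM). Pck2 was at 41.4 CPM in BATKO mouse 14 at 30 °C (others 24.8 to 28 CPM).

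A tested difference between responses was called for 3 results. The 24 h TH response of BATKO minus that of WT mice was -1.33 for Gpd2 and 0.69 for Aqp7 on the log2 scale. The cold response of BATKO minus that of CTRL mice was 1.15 for Pck1, a call that was lost in 14 of 22 alternatives.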

How the results depend on the processing

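Of the 22 differences called for these genes, 22 kept their sign in every alternative run and 15 kept their call in every one. Over 366 alternatives of these, 28 lost the call. Of the 73 differences not called, 6 were called in at least 1 alternative and 23 changed sign in at least 1. The counts of these genes called that moved by over 1.5 times were as follows, and the causes were not tested. With all 30 mice in the fit, 0 genes were called at 3 h (1 before) and 1 from 6 to 12 h (2 before). At 6 h, 2 were called with no filter and with only the 2 groups (1 before). Without mice high in muscle markers, 1 was called from 6 to 12 h and 0 for the difference between the cold responses. With no filter, 0 were called for that difference (Pck1, adjusted p = 0.0541). Leaving out a mouse gave 1 to 2 calls from 6 to 12 h, 0 to 1 from 12 to 24 h (Gpd1 without B23, Pck1 without B27), 0 to 1 between genotypes at 4 °C and 0 to 1 for the cold responses. Calls that changed with a smaller move of the count were Aqp7 in the cold in CTRL mice (lost in 7 of 14 alternatives), Gpd2 in the cold in BATKO mice (lost without mice high in muscle markers), Gpd1 at 12 h (made in 3 of 16), Pck1 from 6 to 12 h (made in 1 of 16, with only the 2 groups) and Pck1 in the difference between the 24 h responses (made in 5 of 25).

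DESeq2 called more genes than edgeR in the comparison of genotypes at 4 °C (650 against 286), the cold responses (656 against 149), CTRL mice on HFD (872 against 509), BATKO mice on HFD (226 against 9), 12 against 6 h (615 against 384) and 6 against 3 h (549 against 364). Between genotypes at 30 °C it called 8 genes against 1 by edgeR, and edgeR called 0 there without mice high in muscle markers. Without mice high in muscle markers, 2216 genes were called in the cold in BATKO mice (5340 with them), 6 for the cold responses, 97 between genotypes at 4 °C, 101 from 6 to 12 h, 192 from 3 to 6 h, 967 from 12 to 24 h (1480 with them) and 4 in BATKO mice on HFD. With only the 2 groups, 790 genes were called from 12 to 24 h, 321 in CTRL and 66 in BATKO mice on HFD, and with all 30 mice 190 from 3 to 6 h. Leaving out a mouse gave 53 to 565 genes between genotypes at 4 °C (61 with only the 2 groups), 5 to 907 for the cold responses, 166 to 716 in CTRL mice on HFD, 0 to 9 in BATKO mice on HFD, 0 to 10 between genotypes on HFD, 111 to 380 from 6 to 12 h, 103 to 408 from 3 to 6 h, 889 to 1700 from 12 to 24 h and 684 to 1311 at 3 h. With no filter, 290 genes were called between genotypes on chow, 59 on HFD, 216 for the diet responses, 1280 in CTRL and 336 in BATKO mice on HFD, 606 from 6 to 12 h and 637 from 3 to 6 h.

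No paired analysis was possible because the groups compared share no mouse number within an experiment. Some numbers recur across experiments, and the labels do not link them. Depth limits Aqp3, which was within 3 counts in every mouse, and widens the error of Pck2 in the TH experiment.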
